A study of Mus musculus with 2 samples.

Results

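Lef1 binding was examined at 10 genes that hold T cells at rest: the transcriptional regulators Foxo1, Foxp1, Bach2 and Id3, the antiproliferative genes Btg1, Btg2 and Tob1, the growth regulators Slfn2 and Tsc1, and the survival gene Bcl2. A peak, here also called a site, is a stretch in the authors' list of calls, and binding at it was not tested in another way. A peak was counted for a gene when it lay inside the gene body or within 50 kb of it on mm10. By this rule 5 of the 2052 peaks in the deposited list belonged to the 10 genes. The peaks came from chromatin immunoprecipitation and sequencing (ChIP-seq) with the anti-Lef1 antibody C18A7. The bound sample was 1 library of conventional CD4+ T cells (TCRb+, CD4+, CD25-) sorted from spleen, taken from wild-type C57BL/6 animals aged 8 to 10 weeks. The control was 1 library of Lef1-deficient CD4+ T cells (TCRb+, CD4+) from CD4-Cre+ Lef1 fl/fl mice on the same strain, precipitated with the same antibody, whose age the labels do not give. CD4-Cre acts during thymic development, before mature CD4 T cells form. Both labels also read naive CD4 T cells, and the control is further described as all CD4 T cells, so the gates may have differed. A peak list holds no expression values, so the sorted cells could not be checked against marker genes. With 1 library of each kind there was no replicate, and all that follows is a description of these 2 libraries.

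A naive T cell circulates for long periods without dividing, and this resting state is actively kept. Forkhead factors and BACH2 keep the gene programme of naive cells in place. BTG and Tob proteins recruit the CCR4-NOT deadenylase to shorten messenger RNA tails, the TSC complex restrains the growth kinase mTOR, and BCL2 blocks apoptosis. Lef1 belongs to the TCF/LEF family of DNA-binding factors. The family prefers words such as CTTTGAA and, as well, CTTTGAT, and Lef1 is abundant in naive T cells.

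Sequence could be set beside a peak at 1 member, Tob1, because its peak falls on the annotated start of the gene. RefSeq promoter sequence (GRCm38.p6, the assembly of mm10) was used, in windows that run from 250 bases before an annotated start to 50 bases after it. All 10 members had an entry, in 12 windows, of which Foxp1 had 3. The Tob1 window is shown with the stretch under the peak in capitals. The window of the second Foxp1 start is shown because it is the member window that holds a full TCF/LEF word, namely CTTTGAA read on the other strand. Capitals there mark that word and each copy of the shorter core CTTTG on either strand.
Tob1, chr11:94211204-94211503, plus strand: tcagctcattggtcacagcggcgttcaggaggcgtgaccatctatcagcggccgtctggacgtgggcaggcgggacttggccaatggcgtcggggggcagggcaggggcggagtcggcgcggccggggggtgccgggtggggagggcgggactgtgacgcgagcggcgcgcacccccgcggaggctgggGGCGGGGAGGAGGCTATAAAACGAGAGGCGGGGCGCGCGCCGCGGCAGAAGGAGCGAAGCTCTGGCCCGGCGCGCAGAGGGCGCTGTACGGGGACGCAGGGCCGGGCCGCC
Foxp1, second start, chr6:99266466-99266765, minus strand: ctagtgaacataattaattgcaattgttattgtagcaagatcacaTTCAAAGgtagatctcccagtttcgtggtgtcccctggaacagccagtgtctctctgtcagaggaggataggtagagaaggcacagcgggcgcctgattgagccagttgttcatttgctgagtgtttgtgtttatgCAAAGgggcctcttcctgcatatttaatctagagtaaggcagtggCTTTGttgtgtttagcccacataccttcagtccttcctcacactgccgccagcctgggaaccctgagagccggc

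Of the 10 genes, 4 had a peak (Foxp1, Bach2, Tob1 and Slfn2) and 6 had none (Foxo1, Id3, Btg1, Btg2, Tsc1 and Bcl2). Among all 21883 protein-coding genes 15.5% had a peak by the same rule, which corresponds to between 1 and 2 genes in 10. Long genes have wider windows, and by quartile of body length, from shortest to longest, the share was 9.08%, 16%, 17.1% and 19.7%. Tob1 and Slfn2 are among the 4 members in the shortest quartile (bodies up to 5.67 kb), and Foxp1 and Bach2 are among the 5 in the longest (44.3 kb and more). Per length of genome searched, the member windows held 5 peaks in 2.28 Mb, or 2.2 per Mb, against 0.831 per Mb over the autosomes. The autosomal figure spans each chromosome from its first to its last protein-coding gene, with stretches far from genes included. It is therefore not a like measure for windows around genes. Counting overlap with the body alone, 3 of 10 members had a peak, against 4.51% of protein-coding genes. That share was not split by body length. Among the 3 are Foxp1 and Bach2, whose bodies are longer than 99.3% and 98% of protein-coding bodies. Members were chosen as a group with earlier results of these data known, so these figures describe the list and test nothing.

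Of the 5 member peaks, 3 scored below the median of the list, and the higher Foxp1 peak and the Slfn2 peak scored above it. Scores are the authors' −log10 p, and the 5 peaks scored 4.04 to 5.44 with a median of 4.25. Over all peaks the median was 4.40, the lowest score 4.01 and the highest 38.2. The Bach2 peak and the lower Foxp1 peak, both at 4.04, thus stood close to the bottom of the list. The 5 member peaks were 55 to 126 bp wide with a median of 61 bp, against 79 bp over all peaks. At a score of at least 5, a level that 22.5% of all peaks reached, 1 of the 5 remained, the one at Slfn2. By that stricter rule 1 of 10 members had a peak, against 4.42% of protein-coding genes. The depth of the libraries is unknown, so a member without a peak is one where none passed the authors' threshold.

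**Figure D1:**
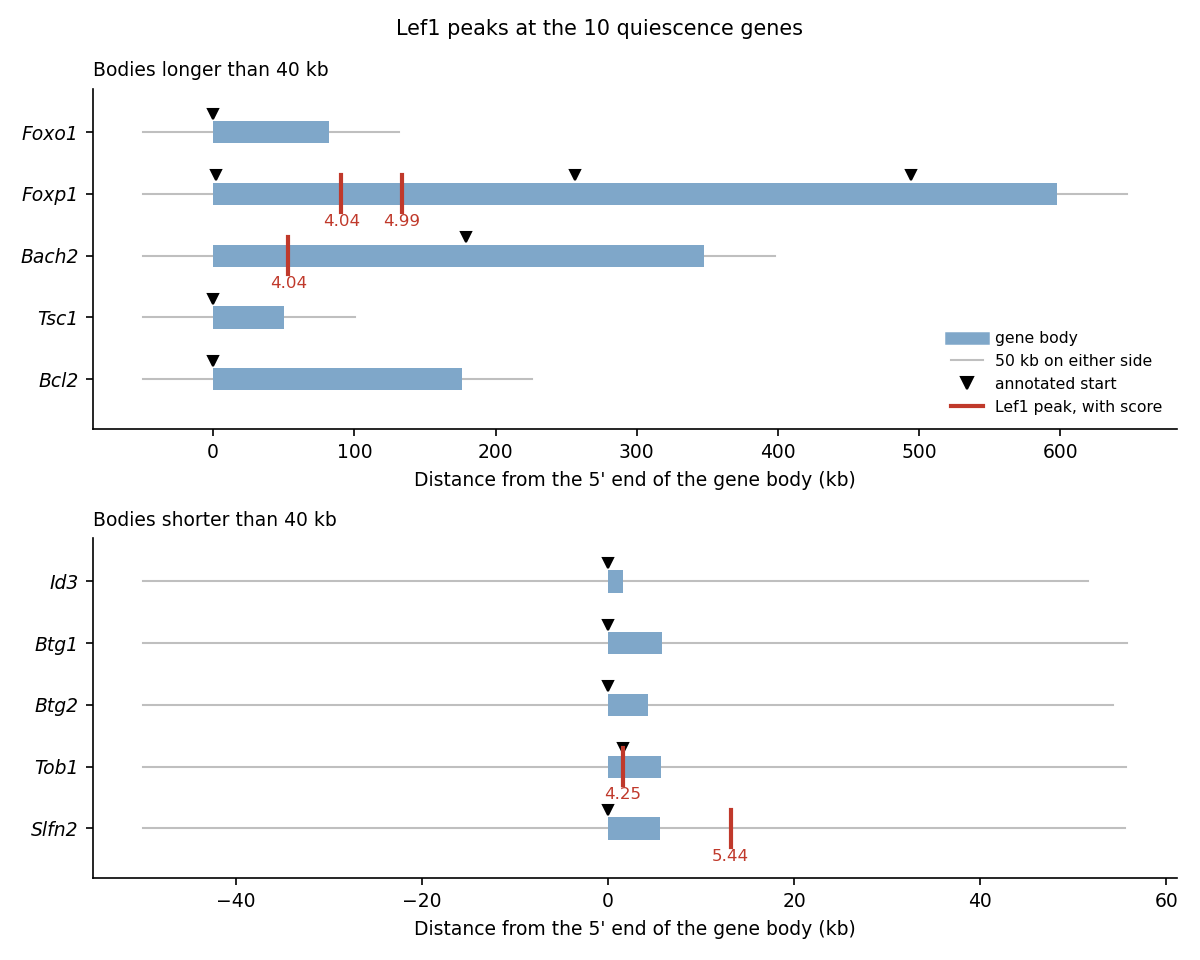
Gene bodies of the 10 members (blue bars), drawn from their 5' end in kb, with 50 kb on either side (grey lines), annotated starts (black triangles) and Lef1 peaks with their scores (red). Bodies longer and shorter than 40 kb have separate axes. The peaks of Foxp1 and Bach2 lie inside the bodies far from a start, that of Tob1 sits on the start, and that of Slfn2 lies past the 3' end.

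Among the transcriptional regulators, Foxp1 and Bach2 had peaks and Foxo1 and Id3 did not. Foxp1, a forkhead repressor that holds naive T cells quiescent, was the sole member with 2 peaks (gene ID 108655, chr6:98925342-99522746, minus strand). The higher one, with a score of 4.99 and a width of 58 bp, lay at chr6:99388994-99389051. It shared its score with others in the list, 75 peaks in all, and 461 peaks scored higher. The other, at chr6:99431952-99432033 and 82 bp wide, scored 4.04, which 2038 of the 2052 peaks exceeded. The 2 sites were 42.9 kb apart and so were separate places.

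Both Foxp1 peaks lay between the first and the second annotated start of the gene. RefSeq places 3 starts in the body, the second 254.5 kb and the third 492.7 kb after the first. The peak of 4.04 was 89 kb past the first start, and the peak of 4.99 was 132 kb past it and 122.5 kb before the second. No peak overlapped any of the 3 promoter windows, including the one printed above. Its full word lies at -205 to -199 from the second start, counting the start as 0. Of 226 protein-coding genes with bodies of 500 kb or more, 10 (4.42%) had at least 2 peaks by the same rule, Foxp1 among them.

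Bach2 encodes a repressor that competes with AP-1 factors and restrains effector differentiation (gene ID 12014, chr4:32238413-32586109, plus strand). Its peak, at chr4:32291671-32291725, scored 4.04 over 55 bp, the narrowest width in the list. The score equalled that of the lower Foxp1 peak and was shared by 11 peaks. The site lay 53.3 kb into the body. It stood 125.7 kb before the annotated start in the promoter table, which lies 179 kb into the body. Foxp1 and Bach2 thus had their sites well away from the starts used here.

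Foxo1, the forkhead factor that drives genes of naive T cell survival and homing, had no peak anywhere near it (gene ID 56458, chr3:52268337-52350109, plus strand). The nearest listed peak was 6.96 Mb before the gene and scored 4.40, and the next on the other side was 7.68 Mb beyond it, also at 4.40. The resulting peak-free stretch of 14.7 Mb was the longest between neighbouring peaks on the autosomes, out of 1999 stretches with a median of 612 kb. Only 1 of 20661 autosomal protein-coding genes was farther from a peak than Foxo1. The stretch held 63 protein-coding genes, or 4.28 per Mb, against 8.5 per Mb over the autosomes.

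Id3, which blocks the DNA binding of E proteins, also had no peak (gene ID 15903, chr4:136143822-136145392, plus strand). With a body of 1.57 kb it is the smallest member. The nearest peak, at chr4:136021838-136021937 with a score of 4.23, lay 121.9 kb before the gene, and its own nearest protein-coding gene was Eloa. Among autosomal protein-coding genes 70.4% were farther from a peak than Id3, so its nearest site is closer than that of most genes although outside the limit of 50 kb.

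Of the 3 BTG/Tob genes, whose products recruit the CCR4-NOT deadenylase, Tob1 had a peak and Btg1 and Btg2 had none. The Tob1 peak, at chr11:94211393-94211518, scored 4.25 and was the widest at any member with 126 bp (gene ID 22057, chr11:94209842-94215495, plus strand). It ran from -61 to 64 around the annotated start, so that its centre lay 1.5 bases past it. The gene body in RefSeq begins 1.61 kb before this start. A peak over an annotated start was uncommon: 82 of 17491 protein-coding genes in the promoter table had one, or 0.469%, and 1.37% had a peak anywhere in a promoter window. The score itself was low within the list, since 76.6% of all peaks scored higher, and 202 peaks, this one included, shared it. The next gene within 50 kb was Wfikkn2, 24.4 kb away, and the nearest peak outside the limit was 617.3 kb from Tob1.

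The promoter table covers 111 of the 126 bases under the Tob1 peak, the capitals above. They contain neither CTTTGAA nor CTTTGAT nor the core CTTTG on either strand, and 15 bases of the peak past the window were not read. In the same stretch of all 21262 promoter windows of protein-coding genes, 1.93% held a full word and 19.8% the core, which is part of both words. The covered bases were 76.6% G or C with 17 CG pairs, and CG pairs were not counted elsewhere. The whole Tob1 window was 75.3% G or C, against a median of 56.3% over all promoter windows. The letters TATAAA, a match to the TATA box by letters alone, stand at -47 to -42 on the coding strand, inside the part under the peak. Such letters occurred, on either strand, in 12.6% of all windows and in 2 of the 12 member windows, those of Tob1 and Btg1. No match says only that these letters are not in the bases read.

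Over whole windows, 1 of the 12 member windows (8.33%) held CTTTGAA or CTTTGAT on either strand, against 7.57% of all windows. The core CTTTG was present in 4 (33.3%), which belong to Foxp1 (2 windows), Bach2 and Slfn2, against 51.2% of all windows. The GC box letters GGGCGG, on either strand, were found in 8 of the 12 (66.7%), against 46.2%. The forkhead letters GTAAACA, on either strand, were found in 1, at Btg1, against 3.01%. G and C made up 48.7 to 76% of a member window with a median of 60.8%. With 12 windows in 10 genes, these shares describe the members and were not tested.

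Btg1 and Btg2 had their nearest sites at similar distances. For Btg1 (gene ID 12226, chr10:96617001-96622813, plus strand) the nearest peak, at chr10:96400854-96400912, scored 4.40 and lay 216.1 kb before the gene, with Btg1 as its own nearest protein-coding gene. For Btg2 (gene ID 12227, chr1:134074865-134079155, minus strand) it lay 258.1 kb past the 3' end, scored 4.11 and was nearest to Atp2b4. These distances are close to the middle of the genome, where the median autosomal protein-coding gene had its nearest peak at 287.3 kb.

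Slfn2, a Schlafen protein needed for the quiescence of T cells, had the highest-scoring site of the 10 genes (gene ID 20556, chr11:83065112-83070678, plus strand). The peak, at chr11:83078277-83078337, scored 5.44 over 61 bp and lay 7.6 kb past the 3' end, or 13.2 kb past the start. In the list 357 peaks (17.4%) scored higher, and 18 peaks, this one included, had the same score. It was the member peak nearest to the 50 kb limit, as the other 4 lay inside a body, and the nearest peak beyond the limit at any member was also near Slfn2, at 112.3 kb. That one, chr11:82952721-82952806 with a score of 4.65, lay inside Slfn5. The peak past Slfn2 was 38.5 kb from Slfn1 as well, so that the Schlafen cluster held 2 separate sites, one between Slfn2 and Slfn1 and one in Slfn5. How the authors treated reads that match several places is not given in the sources used here.

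Tsc1, a subunit of the complex that restrains mTOR, had no peak (gene ID 64930, chr2:28640993-28691172, plus strand). Its nearest site, at a score of 4.40, was 420 kb past the 3' end. Bcl2 had none either, although at 176.1 kb its body is longer than 94.7% of protein-coding bodies (gene ID 12043, chr1:106538176-106714290, minus strand). The nearest peak, with a score of 4.25, was 1.3 Mb before the gene, and 10.9% of autosomal protein-coding genes were farther from one. Bcl2 lay in a peak-free stretch of 8.94 Mb, and 8 of the 1999 stretches were longer. That stretch held 24 protein-coding genes, or 2.68 per Mb. Foxo1 and Bcl2 were thus the members farthest from any listed site.

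**Figure D2:**
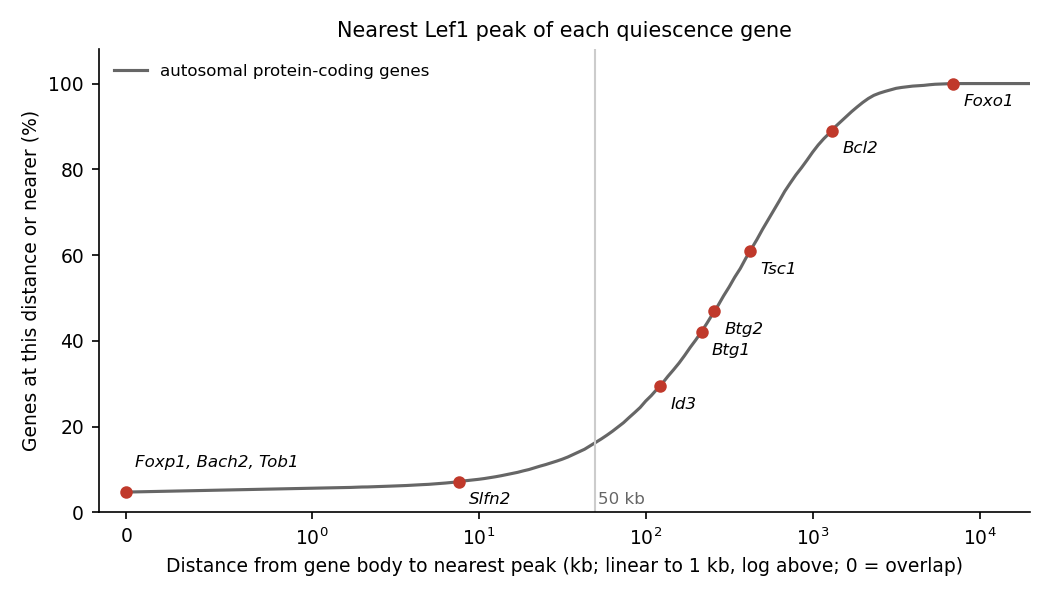
Distance from the gene body to the nearest Lef1 peak (x axis, kb, linear to 1 kb and logarithmic above) against the share of autosomal protein-coding genes at that distance or nearer (y axis, percent, grey line). Red points mark the 10 members: Foxp1, Bach2 and Tob1 overlap a peak, Slfn2 is 7.6 kb away, and Foxo1 stands at the far end with 6.96 Mb.

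**Figure D3:**
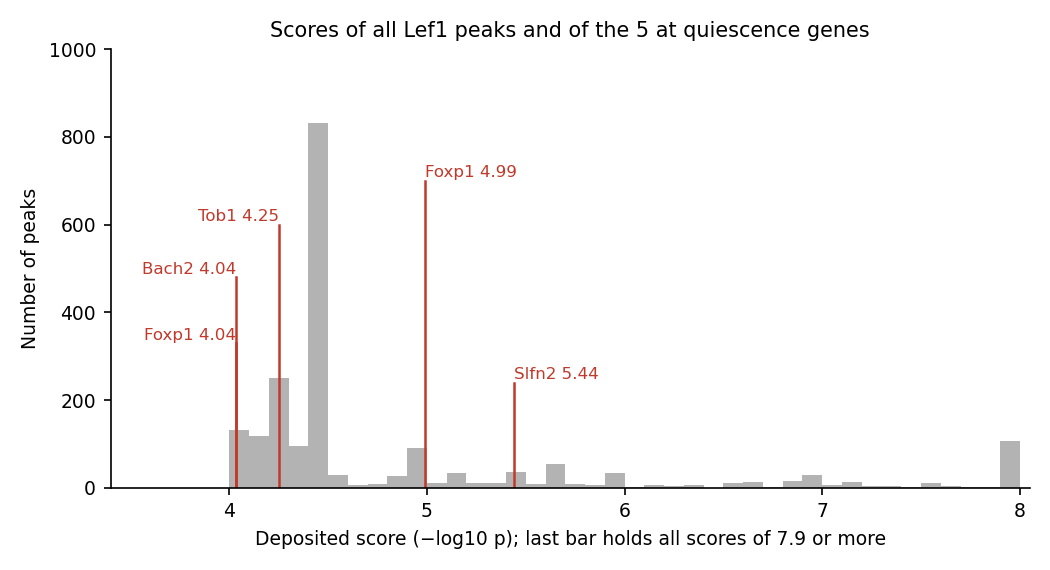
Number of peaks (y axis) by deposited score (x axis, −log10 p, bars of 0.1) over the whole list, with the last bar holding all scores of 7.9 or more. Red lines mark the scores of the 5 member peaks and have no height of their own. The peaks of Bach2 and Tob1 and the lower one of Foxp1 lie below the list's median of 4.40.

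A wider list of 107 other genes of the same pathways was read by the same rule, and 39 of them (36.4%) had a peak, against the 15.5% of all protein-coding genes given above. They had 55 peaks with a median score of 4.80, of which 1, between Slfn2 and Slfn1, is also a member peak. A peak can lie within 50 kb of several genes. When it counted for the nearest protein-coding gene alone, 23 of the 107 (21.5%) and all 4 of the members above had one, against 6.76% of protein-coding genes. The wider list was drawn up with part of its genes already known to have peaks, Satb1, Tcf7 and Lef1 among them, so its share supports no statement about quiescence genes as a class. By role group, the E and Id proteins had 20%, and the BACH2 and BCL-2 groups 25%. The BTG/Tob and CCR4-NOT group had 23.1%, and the mTOR and brake groups 22.2%. The other groups had 46.7% to 75%, against the same 15.5%. The groups are small, and none was tested.

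Among transcription factors of naive and resting T cells 7 of 15 had a peak. The highest-scoring were near Satb1, a chromatin organiser (16.4, 46 kb away), and near Lef1 itself (7.65, 4.07 kb away). Tcf7, which encodes the relative TCF1, followed with 6.68 at 30.7 kb. Peaks inside Satb1 scored 4.25 and 4.83. The relatives of the forkhead members that were in the list, Foxo3, Foxo4 and Foxp4, had none. Klf2, a factor that FOXO1 controls, had 1 of 4.99 at 39.6 kb, but that site was nearer to Ap1m1. Of the E proteins and Id proteins, 1 of 5 had a peak, Tcf4 (6.70), while Id2 and Tcf3 had none. Of the relatives and partners of BACH2, 2 of 8 had one: Prdm1, which encodes BLIMP1 and is a gene that BACH2 represses (4.99, inside the gene), and Bach1 (4.40).

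The RNA decay machinery was read in branches. Of the other BTG/Tob genes and the CCR4-NOT subunits 3 of 13 had a peak, Cnot6l (4.25), Cnot10 (4.23) and Cnot3 (4.14). Of these the one at Cnot10 was inside the gene, and the sites at Cnot6l and Cnot3 were nearer to Mrpl1 and Tsen34. Of 7 other factors of RNA decay or translation, 5 had a peak. Zfp36, which encodes the AU-rich element binding protein tristetraprolin, had the highest (7.39, 4.26 kb away), nearer to Plekhg2. Rc3h2, which encodes the Roquin relative Roquin-2, followed with 4.83, and Pdcd4, an inhibitor of translation initiation, with 4.40, at a site nearer to Shoc2. Zfp36l2 and Rc3h1 had none.

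In the Schlafen family 4 of 7 genes were within 50 kb of a peak, but they shared the 2 sites described: Slfn1 that of 5.44, and Slfn5, Slfn8 and Slfn9 that of 4.65. In the TSC and mTOR group 4 of 18 had a peak, led by Stk11, the kinase LKB1 (5.06), Ddit4, an mTOR inhibitor (4.83), and Rptor, the mTORC1 subunit Raptor (4.40). The sites of Stk11 and Ddit4 were nearer to Atp5d and Anapc16. Tsc2, the partner of Tsc1, had none, and neither did Mtor. In the BCL-2 family 3 of 12 had one, Bbc3 (4.40), Bad (4.34) and Bak1 (4.11), which all promote apoptosis, and each site was nearer to another gene. The antiapoptotic genes Mcl1, Bcl2l1 and Bcl2l2 had none, as Bcl2 had none. The other genes of the group, which also promote apoptosis, had none either: Bcl2l11, Pmaip1, Bax, Bid, Bmf and Hrk.

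Among cell cycle inhibitors, pocket proteins and an E2F factor, 5 of 9 had a peak. Rbl1, which encodes the pocket protein p107, had the highest (7.53), nearer to Samhd1, followed by Cdkn1a, the inhibitor p21 (5.94), and Rbl2, the pocket protein p130 (4.40), at a site nearer to Aktip. Cdkn1b, the inhibitor p27, had none. Of 4 receptor genes that FOXO1 controls directly or through KLF2, 3 had a peak, among them S1pr1 (5.41, inside the gene) and Ccr7 (5.37, 28 kb away and nearer to Tns4). Il7r, the interleukin-7 receptor gene, had none. Of 9 surface and signalling brakes, Dgka (12.5) and Cblb (5.63) had peaks and the other 7 did not.

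**Figure D4:**
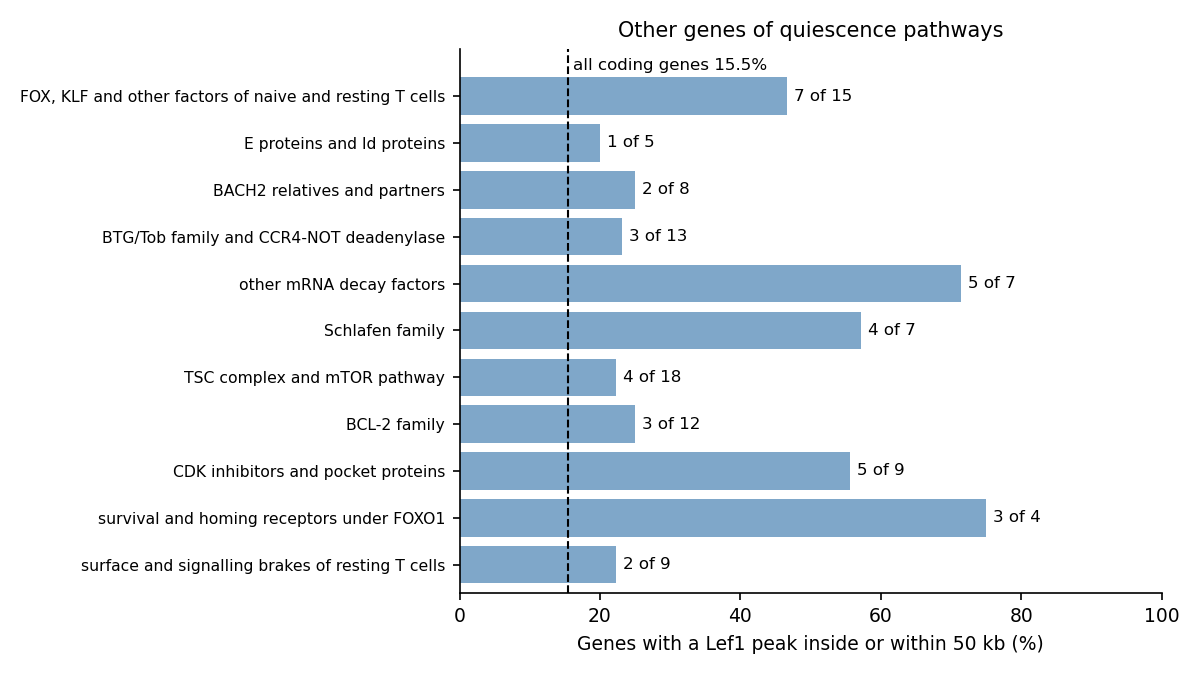
Share of genes with a Lef1 peak inside or within 50 kb (x axis, percent) in 11 role groups of the 107 other pathway genes, with counts beside the bars. The dashed line is the share over all protein-coding genes, 15.5%. Groups hold 4 to 18 genes, neighbouring genes can share a peak, and no error is drawn as there was 1 library.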

How the data were processed

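Peaks were those deposited for 1 wild-type Lef1 library, called by the authors against 1 Lef1-deficient library on mm10. Per the file headers, scores are −log10 p. FastQC, Bowtie2 2.3.4.1 and MACS2 2.1.1 are named, per the submitters' processing notes, without parameters. The deposited starts were taken as BED coordinates and increased by 1. Peak names are numbered up to 33876, so that the 2052 listed peaks are part of a longer set of calls, by a filter not given in the sources used here.

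Gene bodies came from RefSeq (GRCm38.p6, 21883 protein-coding genes on autosomes, X and Y), and starts, strands and sequences from RefSeq promoter windows. A peak counted for every gene whose body lay within 50 kb of its nearest edge. Python 3.11.15, pandas 2.3.3 and numpy 2.4.6 were used, and the assignment was tested on simulated peaks. All 10 members were named, with up to 3 genes per role group of the wider list, by highest score, of which some are not reported here. Klf2, the 4 Schlafen genes that share 2 sites, and genes without a peak were named after their values were seen. No genome sequence was used here, so motif letters in peaks away from starts, and exon or intron positions, were not analysed here. Members and lists were chosen with earlier results of these data known. Alternatives were other distances, a stricter score, the nearest gene alone, the peak centre, merged neighbours and, added after the data were seen, distance from starts and the motif core in promoter windows.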

Additional observations from a re-analysis of the deposited data

How the results depend on the processing

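The number of members with a peak (4), their 5 peaks and the median score of 4.25 were the same within 10 kb and 100 kb, with the nearest gene alone, from the peak centre and with neighbours within 1 kb merged. With overlap of the body alone 3 members had 4 peaks, with a median score of 4.14. At a score of at least 5, 1 member had 1 peak (5.44). Within 50 kb of an annotated start, an alternative added after the data were seen, 2 members had 2 peaks (median 4.85), because the peaks of Foxp1 and Bach2 lie far inside long genes. The share of protein-coding genes with a peak was 7.33% within 10 kb, 24.6% within 100 kb, 4.51% by overlap, 4.42% at a score of at least 5, 6.76% by the nearest gene and 9.93% from starts. The wider list had 39 genes with a peak by the main rule, 22 within 10 kb and 45 within 100 kb. It had 16 by overlap, 14 at a score of at least 5, 23 by the nearest gene and 27 from starts. The core CTTTG, planned for peak sequences and applied to promoter windows after the data were seen, raised the member promoter windows with a match from 1 to 4. The planned searches of peak sequences for motifs were not run for lack of a genome. No paired analysis was possible because no genotype had more than 1 library, and no replicate could be left out. The depth of the libraries is unknown.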

Other observations

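Among the 263 promoter windows of protein-coding genes that a Lef1 peak overlapped, 53 (20.2%) held CTTTGAA or CTTTGAT on either strand somewhere in the window, against 7.57% of all 21262 windows. In the part under the peak alone, 34 (12.9%) held one. The Tob1 window is one of those without. The core CTTTG was found in 54% of the overlapped windows and in 51.2% of all windows. In the part under the peak alone, 30.4% held the core. Parts under a peak differ in length from whole windows, and no share over stretches of like length was taken for them. Neighbouring and overlapping windows share sequence, so these shares are descriptions.

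By body length, the wider pathway list had peaks at 5 of 18 genes in the shortest quartile and 11 of 28 in the next. The one after had 6 of 27 and the longest 17 of 34. All protein-coding genes stood at 9.08%, 16%, 17.1% and 19.7% in the same order. Part of the list was already known to have peaks when it was drawn up, so these shares test nothing. Neighbouring genes can share a peak, and 16 of the 39 genes with a peak were not the nearest protein-coding gene to one.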
